A study of Mus musculus with 4 samples.

Results

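Lung mRNA of 34 genes for fatty acid oxidation and its control by peroxisome proliferator-activated receptors (PPARs) was compared between mice given vehicle, amiodarone, dabigatran or amiodarone + dabigatran. The 34 genes were found by their symbols among the 17780 genes of the deposited table, and all 34 had a mean over the 4 libraries of at least 1 FPKM (fragments per kilobase of transcript and library size), the minimum that 13183 genes of the table met. In 35 rows of the table these symbols appeared, because the symbol Plin2 was given to 2 identifiers. The row used for Plin2 was that of identifier 11520, and the other one, identifier 101055843, is the transcribed pseudogene Gm12551 in the RefSeq table and shares 5312 bases with the Plin2 locus.

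The mice were male C57BL/6 animals (C57BL/6J in the methods), 6 to 7 weeks old when purchased, and were dosed orally 5 times per week. Amiodarone, an antiarrhythmic drug with known lung toxicity, was given at 300 mg per kg per day, dabigatran, a thrombin inhibitor given as its etexilate prodrug, at 60 mg per kg per day, and the combination as both drugs together. Vehicle mice received the carboxymethylcellulose solution in which the drugs were suspended, so that all 4 groups shared this vehicle. The labels give 28 days of treatment and the methods give day 26 for the collection of the left lung, whose polyA RNA was sequenced from 1 library per group.

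With 1 library per group no difference between animals could be tested, and no p-value is given. Each ratio of FPKM is given with a 95% exact Clopper-Pearson interval from the estimated reads, which covers counting error only, and a ratio is called beyond counting error where its interval leaves out 1. A gene is counted as changed where the ratio passed 1.5-fold in either direction. Estimated reads per library ranged from 17498486 to 18903401. The tissue label was checked with markers of alveolar type 2 cells, of which Sftpc was at 20077, 19587, 19876 and 20385 FPKM with vehicle, amiodarone, dabigatran and amiodarone + dabigatran. All values below follow this order of the 4 libraries unless stated otherwise.

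Long-chain fatty acids are first joined to coenzyme A by acyl-CoA synthetases and then pass into mitochondria on carnitine, where they are shortened by repeated rounds of dehydrogenation, hydration, a second dehydrogenation and thiolysis. Peroxisomes run a similar spiral that begins with an oxidase and shortens very long and branched chains. PPARs are nuclear receptors for fatty acids that, together with retinoid X receptors, bind response elements near genes of both spirals, of lipid droplets and of lipoprotein handling. In the lung, alveolar type 2 cells that make surfactant, and alveolar macrophages that clear it, handle much of the lipid.

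A PPAR response element consists of the letters AGGTCA repeated after 1 base, and AGGTCANAGGTCA was searched on both strands in the 250 bases before each start site in RefSeq's promoter table for GRCm38.p6. Of the 34 genes 28 had an entry. Angptl4, Cpt1b, Acaa2, Hsd17b4, Crat and Decr1 had none, so their promoters were not searched. With up to 2 mismatches over the 12 fixed bases, 2 of 28 (7.14%) held a match, Plin2 and Etfa, against 3.72% of all 27025 genes with an entry. With up to 1 mismatch there was a match in 0 of the 28 and in 0.566% of all genes. Both matches lay on the strand opposite to the gene. Both promoters are shown, as the only ones with a match. Plin2, which encodes the coat protein perilipin 2 of lipid droplets, was higher in both amiodarone comparisons. The start site of Plin2 in the promoter table (position 86670059) lies inside the RefSeq locus of the gene, which ends at 86670217, so only the 92 bases outside the locus are printed, chr4:86670218-86670309 on the minus strand. The match is in capitals, and its first base lies 225 bases before that start site and 67 bases before the end of the locus. The Etfa promoter (chr9:55512244-55512493, minus strand), with a match that begins 77 bases before the start site, is shown beside it. Etfa, a subunit of the electron transfer flavoprotein, was lower with amiodarone than with vehicle, by a ratio of 0.887 (0.815 to 0.965). With amiodarone + dabigatran against dabigatran its ratio of 1.01 (0.926 to 1.10) was within counting error.
Plin2: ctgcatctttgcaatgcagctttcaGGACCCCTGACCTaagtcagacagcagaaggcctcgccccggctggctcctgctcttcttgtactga
Etfa: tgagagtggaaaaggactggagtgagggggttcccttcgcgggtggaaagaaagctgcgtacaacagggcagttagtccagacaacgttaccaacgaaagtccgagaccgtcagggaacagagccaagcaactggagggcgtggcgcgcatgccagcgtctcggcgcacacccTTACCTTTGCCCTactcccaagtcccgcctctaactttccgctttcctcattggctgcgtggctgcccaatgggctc
A match of letters is a description of the sequence and not a binding site.

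The levels of the 34 genes spanned from 1.31 FPKM for Ppara, the receptor PPAR alpha, to 75.0 FPKM for Acsl5, an acyl-CoA synthetase, as means over the 4 libraries. After Acsl5, the next most abundant per length were Acadl, the long-chain acyl-CoA dehydrogenase, with a mean of 68.7 FPKM and Etfb, the other subunit of the electron transfer flavoprotein, with a mean of 68.2 FPKM. At the low end stood Ppargc1a, a coactivator of PPARs, with a mean of 1.57 FPKM and Ehhadh, the bifunctional enzyme of the peroxisome, with a mean of 3.81 FPKM. The sum over all 34 genes was 1080, 1063, 1031 and 1053 FPKM, so that the summed levels lay close together in the 4 libraries.

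**Figure D1:**
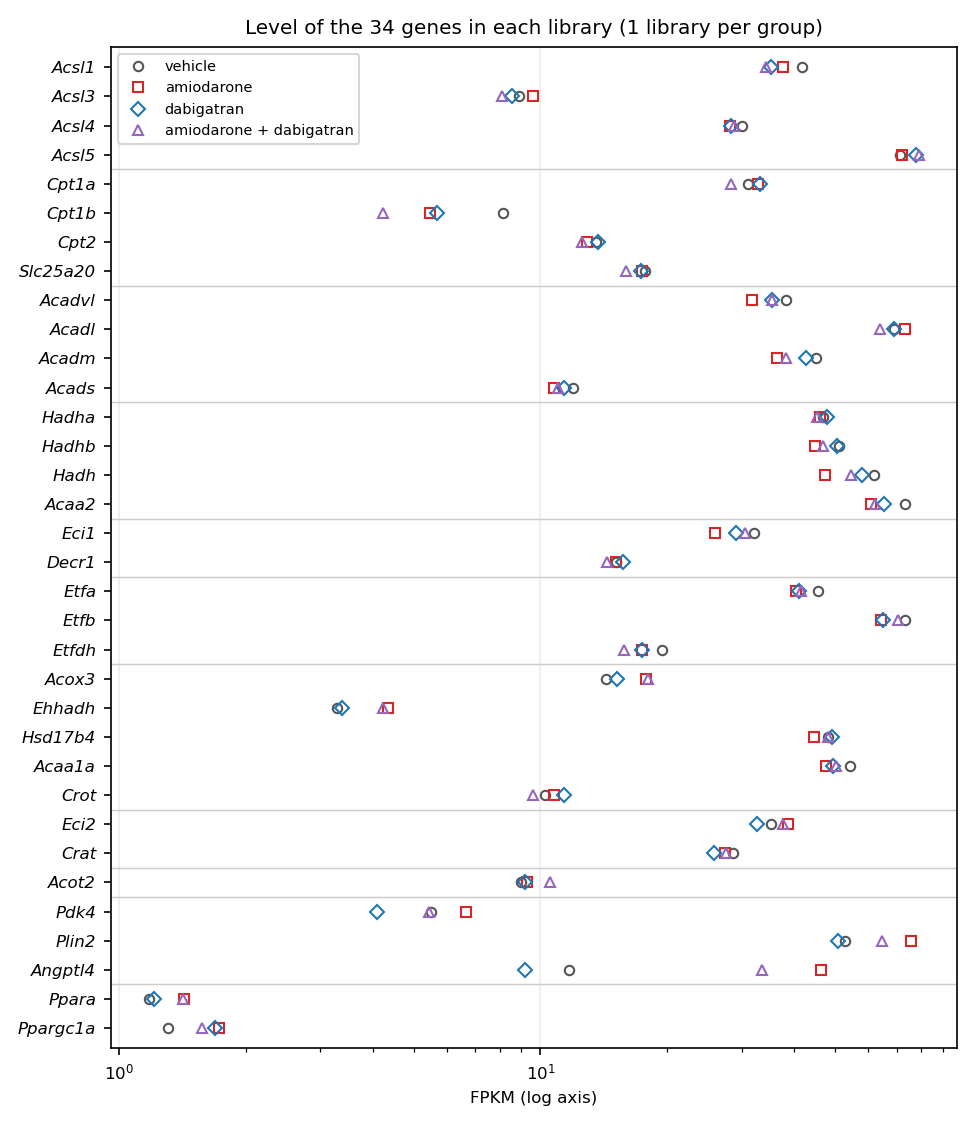
FPKM of each of the 34 genes on a log axis, with 1 point per library coloured by treatment. For most genes the 4 points lie together, while the points of Angptl4 run from 9.17 to 46.2 FPKM with both amiodarone libraries above both others.

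2 amiodarone comparisons that share no library were made, amiodarone against vehicle and amiodarone + dabigatran against dabigatran. In the first 1 of 34 genes was at least 1.5-fold higher, beside 5.14% of the 13183 genes, and 0 of 34 were at least 1.5-fold lower, beside 6.59%. In the second the counts were 1 of 34, beside 4.14%, and 0 of 34, beside 3.89%. The gene was Angptl4 both times, and 2.75% of all genes were at least 1.5-fold higher in both. In all other members the amiodarone ratios lay between 0.673, for Cpt1b, and 1.44, for Plin2. Because whole lung was sequenced, fewer cells of a type and less RNA per cell cannot be told apart in any of these values.

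Angptl4 (chr17:33774900-33781575), a secreted inhibitor of lipoprotein lipase and a well-known PPAR target, was at 11.7, 46.2, 9.17 and 33.5 FPKM, from 378, 1600, 301 and 1172 estimated reads. Both libraries with amiodarone were far above both libraries without it. It was 3.95-fold higher with amiodarone than with vehicle (3.53 to 4.44) and 3.65-fold higher with amiodarone + dabigatran than with dabigatran (3.22 to 4.16). Among the 13183 genes these ratios ranked 81 and 61 from the highest. The second ratio was 0.924 times the first (0.780 to 1.09), an interval that includes 1.

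Plin2 (chr4:86626910-86670217), whose promoter is shown above, was at 52.6, 75.8, 50.8 and 64.6 FPKM, again with both amiodarone libraries highest. Its ratios were 1.44 (1.35 to 1.53) and 1.27 (1.19 to 1.36), both beyond counting error and under 1.5-fold, and the second was 0.885 times the first (0.809 to 0.968). Pdk4, a kinase that shuts pyruvate out of oxidation and so favours fatty acids as fuel, was at 5.50, 6.65, 4.09 and 5.44 FPKM. Its amiodarone ratios were 1.21 (1.04 to 1.40) and 1.33 (1.13 to 1.57). The amiodarone + dabigatran library was, for Pdk4, no higher than vehicle, since the level with dabigatran alone was the lowest of the 4.

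The 2 regulators were the least abundant members. Ppara was at 1.18, 1.43, 1.21 and 1.42 FPKM from 149 to 196 reads, with ratios of 1.21 (0.973 to 1.51) and 1.17 (0.946 to 1.46) that were not beyond counting error at this depth. Ppargc1a was at 1.31, 1.73, 1.69 and 1.57 FPKM, with vehicle lowest. It was higher with amiodarone than with vehicle by 1.32 (1.06 to 1.64), whereas the ratio between the 2 dabigatran libraries was 0.929 (0.756 to 1.14), and the second ratio was 0.703 times the first (0.526 to 0.942).

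Of the carnitine shuttle, the step at which fatty acids enter mitochondria, Cpt1b stood apart. Cpt1b (chr15:89416405-89425862), the carnitine palmitoyltransferase of muscle and brown fat, was at 8.14, 5.48, 5.69 and 4.24 FPKM from 405, 292, 287 and 228 reads. Vehicle was the highest library and amiodarone + dabigatran the lowest. Its ratios were 0.673 (0.577 to 0.784) and 0.745 (0.623 to 0.890). In RefSeq, the lncRNA Gm44502 overlaps the whole Cpt1b locus, and reads of the 2 cannot be separated without knowing how they were assigned. Cpt1a, the isoform of liver and most other tissues, was at 31.1, 32.7, 33.2 and 28.3 FPKM, with ratios of 1.05 (0.993 to 1.11) and 0.853 (0.806 to 0.904). Only the library with both drugs was lower than the other 3. Cpt2, which releases the acyl group inside the mitochondrion, and Slc25a20, the carnitine-acylcarnitine carrier, had 4 amiodarone ratios between 0.918 and 0.983, all within counting error.

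Markers of cardiac muscle were also below vehicle in the other 3 libraries. The 10 cardiac markers summed to 2020, 1070, 1365 and 969 FPKM. Beyond counting error 10 of 10 were lower with amiodarone than with vehicle, beside 30.0% of all genes. In the second amiodarone comparison 9 of 10 were lower, beside 23.3%. The most abundant, Actc1 and Myl7 (cardiac actin and atrial myosin light chain), were at 413, 175, 326 and 183 FPKM and at 359, 176, 231 and 162 FPKM. Relative to vehicle, the cardiac sum was 0.529, 0.676 and 0.480 and Cpt1b was 0.673, 0.699 and 0.521 in the other libraries. The part of the cardiac markers in the Cpt1b values was not tested.

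Among the acyl-CoA synthetases, which activate fatty acids, no member was beyond counting error in both amiodarone comparisons. Acsl5 was at 71.2, 72.1, 78.0 and 78.9 FPKM, with 2 ratios of 1.01 (both 0.967 to 1.06). Acsl1 was at 41.8, 37.7, 35.2 and 34.3 FPKM, with ratios of 0.900 (0.853 to 0.950) and 0.973 (0.919 to 1.03). Acsl3 was at 8.91, 9.62, 8.55 and 8.10 FPKM, with ratios of 1.08 (0.964 to 1.21) and 0.947 (0.843 to 1.06). Vehicle was the highest library for Acsl1 and amiodarone + dabigatran the lowest, and the first ratio of Acsl1 was beyond counting error. Acsl4, which prefers arachidonic acid, had ratios of 0.936 and 1.02.

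The acyl-CoA dehydrogenases take the first step of each mitochondrial round, each for its own chain length. Acadm, for medium chains, was at 45.1, 36.4, 42.6 and 38.3 FPKM, with ratios of 0.809 (0.752 to 0.870) and 0.898 (0.835 to 0.965). Both libraries with amiodarone were thus below both without it. Acadl was at 68.9, 73.3, 68.9 and 63.8 FPKM, and its ratios of 1.06 (1.01 to 1.13) and 0.926 (0.874 to 0.982) went in opposite directions. Acadvl, for very long chains, had ratios of 0.830 (0.769 to 0.896) and 0.998 (0.926 to 1.08), and Acads, for short chains, had ratios of 0.903 and 0.971 within counting error.

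Hadha and Hadhb encode the subunits of the mitochondrial trifunctional protein, which carries out the remaining steps for long chains. Hadha was at 46.8, 46.1, 47.9 and 45.3 FPKM, the narrowest range of this step, with ratios of 0.984 (0.936 to 1.03) and 0.947 (0.902 to 0.995). Its partner Hadhb was at 51.1, 44.8, 50.6 and 46.7 FPKM, with ratios of 0.877 (0.820 to 0.938) and 0.923 (0.864 to 0.986). Hadhb was lower in both, and Hadha beyond counting error in the second only. Hadh, the hydroxyacyl-CoA dehydrogenase for shorter chains, was at 62.0, 47.4, 57.8 and 54.4 FPKM, with ratios of 0.765 (0.715 to 0.819) and 0.942 (0.882 to 1.01). The amiodarone library was the lowest for Hadh, and the second ratio was 1.23 times the first (1.12 to 1.35). Acaa2, the mitochondrial thiolase, had ratios of 0.829 (0.775 to 0.886) and 0.949 (0.887 to 1.02), with vehicle the highest library at 73.3 FPKM.

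Of the auxiliary enzymes for unsaturated chains, the isomerase Eci1 was at 32.1, 26, 29.2 and 30.6 FPKM. It was lower with amiodarone than with vehicle by a ratio of 0.810 (0.718 to 0.915) but not in the second comparison, where the ratio was 1.05 (0.932 to 1.18). The dienoyl-CoA reductase Decr1 was at 15.1, 15.1, 15.7 and 14.4 FPKM, with ratios of 1.0 (0.906 to 1.11) and 0.920 (0.833 to 1.02). Electrons of the first step pass through the flavoprotein of Etfa and Etfb to Etfdh, its oxidoreductase in the inner membrane. Etfb was at 73.2, 64.1, 65.0 and 70.5 FPKM, with ratios of 0.876 (0.803 to 0.955) and 1.08 (0.994 to 1.18), and Etfa had ratios of 0.887 (0.815 to 0.965) and 1.01 (0.926 to 1.10). Etfdh was at 19.5, 17.4, 17.4 and 15.8 FPKM, with ratios of 0.893 (0.805 to 0.990) and 0.908 (0.815 to 1.01). For all 3 the vehicle library was the highest. Acot2, a thioesterase of the mitochondrial matrix, had ratios of 1.04 (0.895 to 1.21) and 1.15 (0.994 to 1.33).

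Peroxisomal members divided into genes higher and genes lower or level. Ehhadh was at 3.29, 4.35, 3.38 and 4.23 FPKM from 168, 241, 174 and 236 reads, with ratios of 1.32 (1.08 to 1.62) and 1.25 (1.02 to 1.53). Acox3, the oxidase for branched chains, was at 14.3, 17.8, 15.2 and 18.0 FPKM, with ratios of 1.24 (1.14 to 1.35) and 1.19 (1.09 to 1.29). In both genes the 2 libraries with amiodarone were above the 2 without. The peroxisomal thiolase Acaa1a was at 54.2, 47.6, 49.3 and 50.2 FPKM, with ratios of 0.879 (0.819 to 0.944) and 1.02 (0.948 to 1.09). Hsd17b4, the second bifunctional enzyme, had ratios of 0.930 (0.876 to 0.987) and 0.978 (0.923 to 1.04), and Crot, the carnitine octanoyltransferase that exports shortened chains, had ratios of 1.05 (0.929 to 1.19) and 0.843 (0.746 to 0.952).

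Of the enzymes found in both organelles, Eci2, an enoyl-CoA isomerase, was at 35.2, 38.7, 32.6 and 37.6 FPKM, with ratios of 1.10 (1.01 to 1.2) and 1.15 (1.05 to 1.26). Crat, the carnitine acetyltransferase, was at 28.6, 27.4, 25.8 and 27.5 FPKM, with ratios of 0.958 (0.891 to 1.03) and 1.07 (0.992 to 1.15). Both amiodarone libraries were highest for Eci2, and vehicle for Crat.

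**Figure D2:**
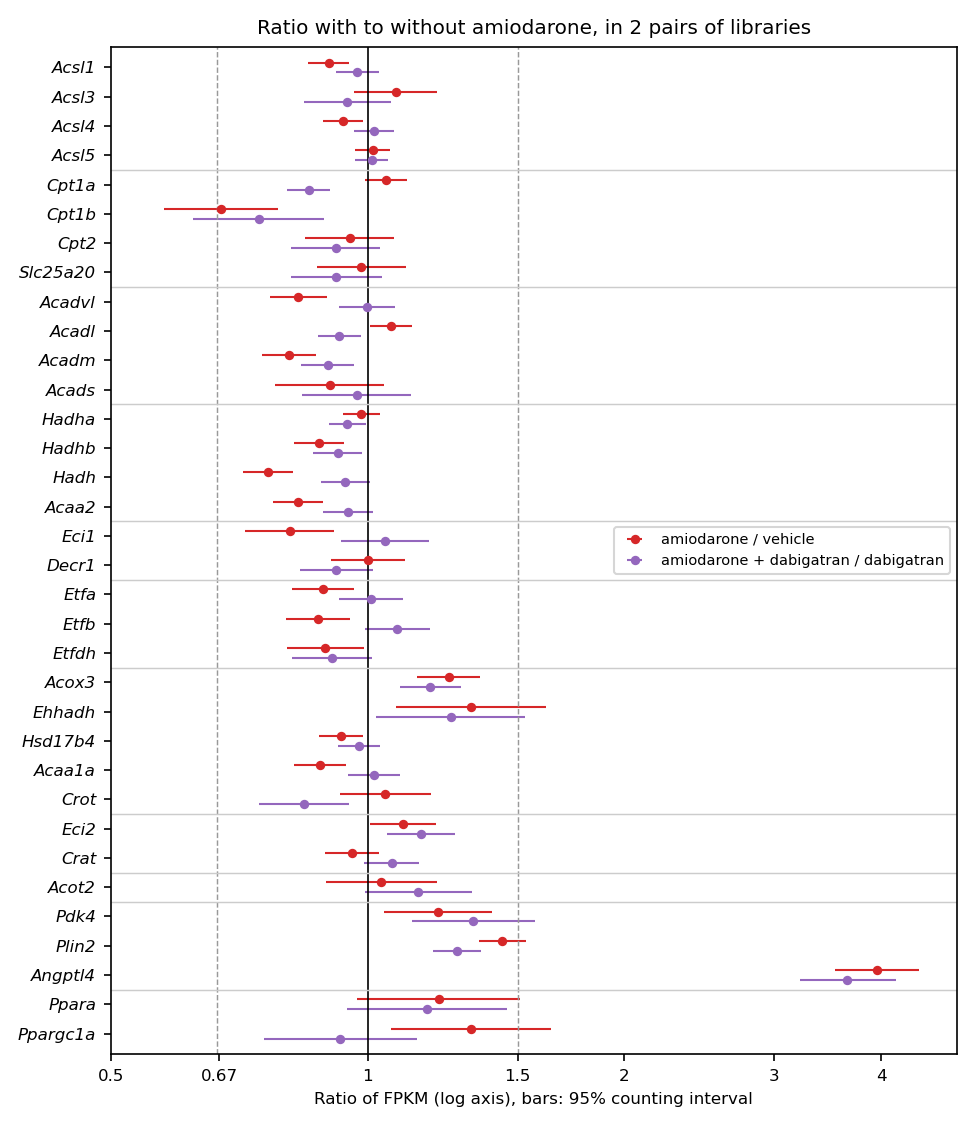
Ratio of FPKM of each gene, on a log axis, for amiodarone against vehicle and for amiodarone + dabigatran against dabigatran, with bars for the 95% counting interval. Angptl4 lies at 3.95 and 3.65, and Cpt1b has the lowest ratio of both comparisons at 0.673 and 0.745.

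Counted over all 34 genes, 8 were higher and 14 lower beyond counting error with amiodarone than with vehicle, beside 19.5% and 30.0% of the 13183 genes. For amiodarone + dabigatran against dabigatran, 6 were higher and 7 lower, beside 19.5% and 23.3%. Higher in both were 6 genes, namely Angptl4, Plin2, Pdk4, Ehhadh, Acox3 and Eci2, beside 10.4% of all genes, and lower in both were 3, namely Cpt1b, Acadm and Hadhb, beside 13.4%. The median log2 ratio of the 34 genes was -0.04 in each comparison, beside -0.05 and -0.01 over all genes. Across the 34 genes the log2 ratios of the 2 comparisons had a Pearson correlation of 0.885, which was 0.608 over the 33 genes without Angptl4. These genes came from the same 4 libraries and are not replicates.

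The mitochondrial members, 18 genes from the carnitine shuttle to the electron transfer flavoprotein and Acot2, were set against the 5 peroxisomal members. Among the mitochondrial members the median log2 ratio was -0.17 with amiodarone against vehicle and -0.10 in the second comparison, and among the peroxisomal members it was 0.07 and 0.03. In each comparison 14 of 18 mitochondrial members had a ratio below 1. Most of the 13183 genes did too, since their median log2 ratios were -0.05 and -0.01. Below 1 in both were 11 of 18, beside 37.7% of all genes. Beyond counting error 10 of the 18 were lower and 1, Acadl, higher in the first comparison, and 6 were lower and 0 higher in the second. Over all genes 30.0% were lower and 19.5% higher in the first, and 23.3% and 19.5% in the second. Of the 5 peroxisomal members, read against the same shares of all genes, 2 were higher and 2 lower in the first, and 2 higher and 1 lower in the second. The summed level of the mitochondrial members was 662, 592, 627 and 601 FPKM, and that of the peroxisomal members was 130.0, 125, 129 and 130.2 FPKM. Among mitochondrial members alone the correlation of both sets of log2 ratios was 0.295 over 18 genes. The peroxisomal ratios ran from 0.843 to 1.32, and with a minimum mean of 5 FPKM, which leaves out Ehhadh, the peroxisomal medians turned to -0.02 and -0.0035.

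**Figure D3:**
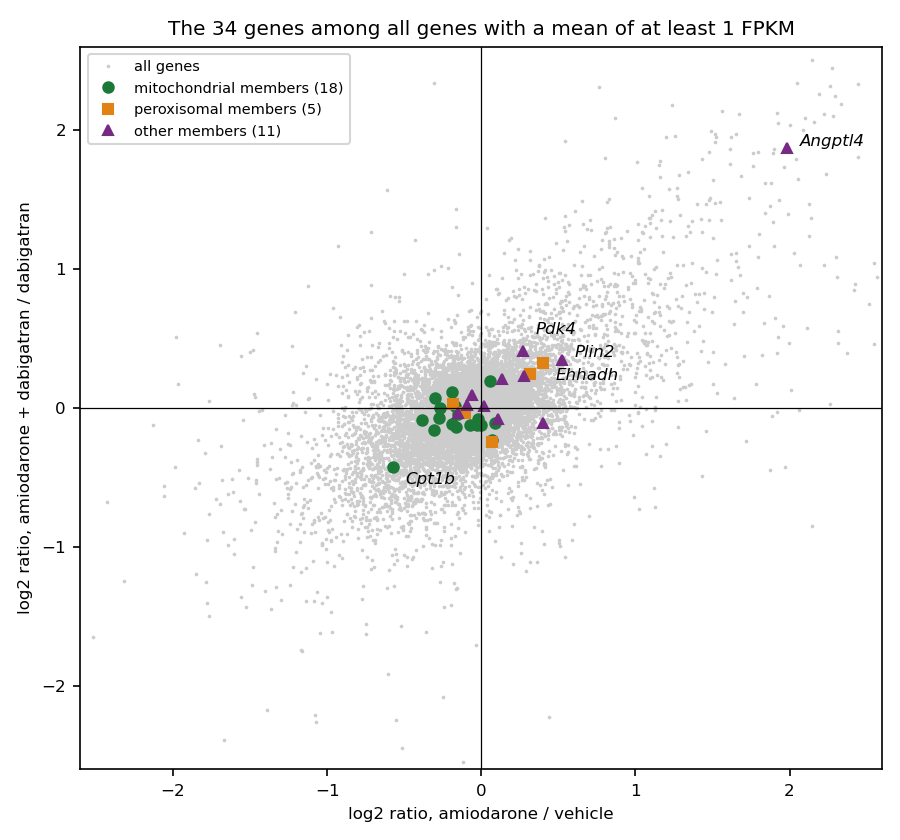
Log2 ratio of FPKM for amiodarone against vehicle on the x axis and for amiodarone + dabigatran against dabigatran on the y axis, with all genes in grey and the 34 genes coloured by organelle. The 18 mitochondrial members lie mostly left of and below 0, Angptl4 lies at the upper right, and 42 genes fall outside the axes.

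The ratio of the second amiodarone ratio to the first asks whether the amiodarone difference was the same size with dabigatran as without it, and its interval again covers counting error only. It was above 1 beyond counting error in 10 of 34 genes and below 1 in 5, beside 20.3% and 15.8% of all genes. Of the 18 mitochondrial members 7 were above 1, namely Acadvl, Acadm, Hadh, Acaa2, Eci1, Etfa and Etfb, and 2 below 1, Cpt1a and Acadl. The range among the 7 was from 1.11 for Acadm to 1.29 for Eci1 (1.10 to 1.53). The other 3 above 1 were Acsl4, Acaa1a and Crat, and the other 3 below 1 were Crot, Plin2 and Ppargc1a.

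For dabigatran, 2 comparisons that share no library with each other were made, dabigatran against vehicle and amiodarone + dabigatran against amiodarone, and each shares libraries with both amiodarone comparisons. In the first, 0 of 34 genes were at least 1.5-fold higher, beside 1.21% of the 13183 genes, and 0 at least 1.5-fold lower, beside 1.30%. In the second, 0 were higher and 0 lower, beside 2.28% and 1.80%. Beyond counting error 3 genes were higher and 13 lower with dabigatran than with vehicle, beside 15.2% and 13.4%. With both drugs against amiodarone 6 were higher and 8 lower, beside 21.1% and 14.9%. The median log2 ratio of the 34 genes was -0.06 and -0.02, beside 0.00 and 0.04 over all genes.

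In both dabigatran comparisons Acsl5 was higher, beside 3.05% of all genes, and Acsl1, Cpt1b, Pdk4 and Angptl4 were lower, beside 1.95%. The ratios of Acsl5 were 1.10 (1.05 to 1.15) and 1.09 (1.04 to 1.14). Angptl4 had ratios of 0.785 (0.673 to 0.916) and 0.725 (0.672 to 0.783), so that with both drugs it was still 2.87 times the vehicle level. Those of Pdk4 were 0.744 (0.628 to 0.880) and 0.818 (0.708 to 0.945), and those of Cpt1b 0.699 (0.599 to 0.815) and 0.774 (0.648 to 0.923). Acsl1 had ratios of 0.842 (0.796 to 0.890) and 0.911 (0.861 to 0.963). Plin2 was lower only with both drugs against amiodarone, at 0.853 (0.805 to 0.904), beside 0.964 (0.899 to 1.03) for dabigatran against vehicle.

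**Figure D4:**
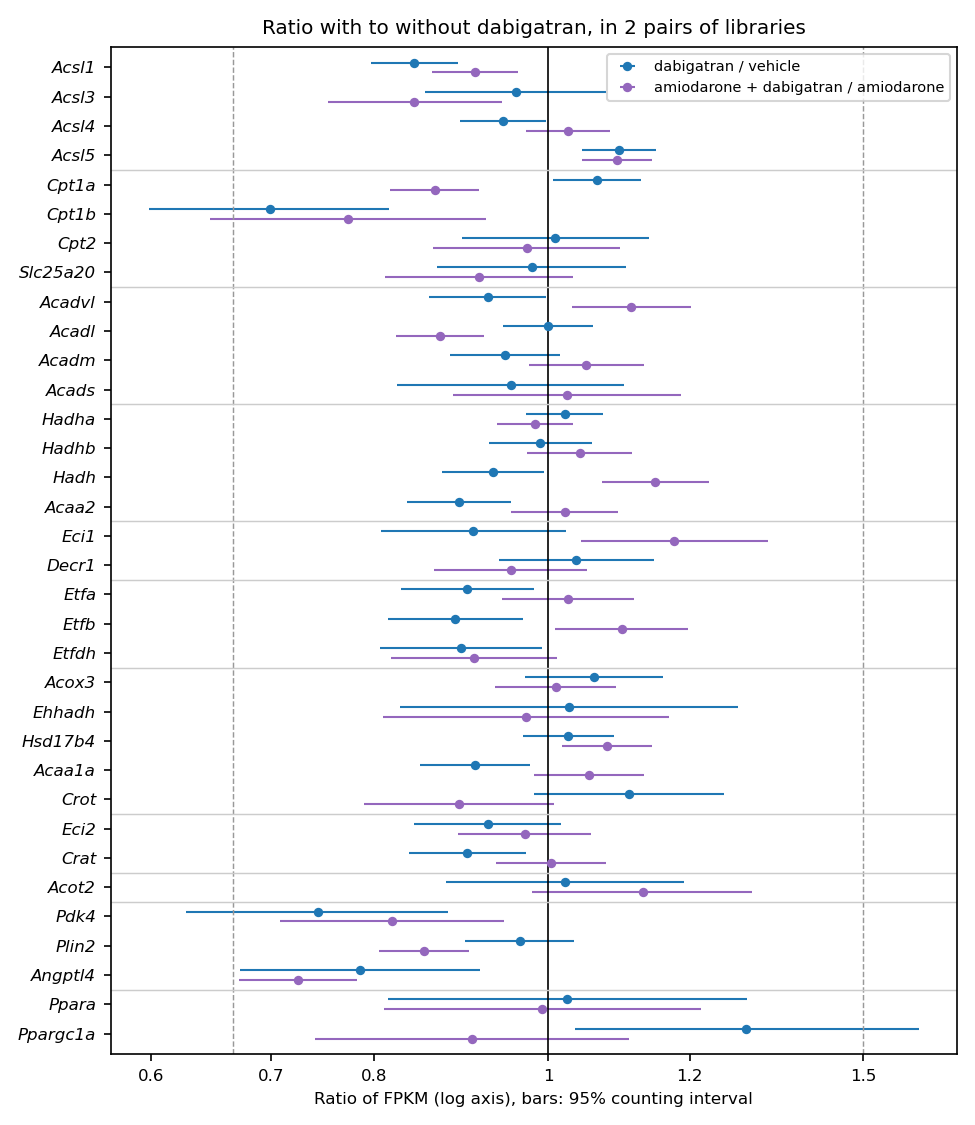
Ratio of FPKM of each gene, on a log axis, for dabigatran against vehicle and for amiodarone + dabigatran against amiodarone, with bars for the 95% counting interval. All ratios lie between 0.699 and 1.29, and Angptl4, Pdk4 and Cpt1b lie below 1 in both.

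Other genes of the pathway were taken from lists of 94 genes, of which 84 passed the same minimum of 1 FPKM. Past 1.5-fold in the same direction in both amiodarone comparisons were 3 of the 84 that were higher, beside 2.75% of all genes. Klf15, a transcription factor that favours lipid use over glucose, was at 19.5, 44.1, 17.6 and 38.3 FPKM, with ratios of 2.26 and 2.18. Fabp5, the epidermal type of fatty acid-binding protein that delivers ligands to PPARs, was at 44.5, 92.1, 48.1 and 115 FPKM, with ratios of 2.07 and 2.39. Lpl, the lipoprotein lipase that Angptl4 inhibits, was at 63.8, 138, 65.0 and 99.2 FPKM, with ratios of 2.17 and 1.53. For all 3 both amiodarone libraries lay above both others.

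Lower past 1.5-fold in both were 7 of the 84, beside 1.90% of all genes. Fabp1, the liver type of fatty acid-binding protein, was at 5.79, 0.25, 5.46 and 1.58 FPKM from 44, 2, 42 and 13 reads, with ratios of 0.0432 (0.00507 to 0.166) and 0.289 (0.143 to 0.550). Fabp3, the type of heart muscle, was at 89.7, 50.4, 66.4 and 43.4 FPKM, with ratios of 0.562 and 0.653. The others were Rxrg, a partner receptor of PPARs, Plin1, the perilipin of adipocytes, Acaa1b, a close paralog of Acaa1a, Acsm1, a synthetase for medium chains, and Slc27a2, a synthetase for very long chains. Their ratios were 0.508 and 0.362 for Rxrg, 0.290 and 0.419 for Plin1, 0.344 and 0.605 for Acaa1b, 0.579 and 0.654 for Acsm1, and 0.556 and 0.660 for Slc27a2, with few reads for most of them, such as 19 to 77 for Plin1. Acaa1a and Acaa1b share much of their sequence, and how reads were split between them is uncertain.

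By list, and beside the same 2.75% higher and 1.90% lower over all genes, 2 of the 22 other PPAR targets were at least 1.5-fold higher and 3 lower in both amiodarone comparisons, and of the 12 other receptors, partners and cofactors 1 was higher and 1 lower. Of the 27 other peroxisomal enzymes and transporters 0 were higher and 1 lower. Among the 9 other synthetases and thioesterases 0 were higher and 2 lower. Of 14 genes on a list of further, mostly mitochondrial enzymes 0 were higher and 0 lower. Many genes on that list serve the breakdown of branched-chain amino acids and propionate rather than of fatty acids. The median log2 ratios of these 14 genes were -0.11 and 0.05, and those of the 27 peroxisomal genes -0.14 and -0.03. The order of mitochondrial below peroxisomal medians among the members was thus not the order of these 2 lists in either comparison. The list of 14 is not a set of fatty acid oxidation genes like that of the members.

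Markers of other cell types differed between the same libraries. The 12 macrophage markers summed to 285, 1201, 309 and 1407 FPKM. Beyond counting error 12 of 12 were higher in both amiodarone comparisons, beside 10.4% of all genes. The most abundant were Chil3 at 90.3, 731, 113 and 940.3 FPKM and Lgals3 at 125, 271, 122 and 245 FPKM. The 6 neutrophil markers, 6 of 6 higher beyond counting error in both beside the same 10.4%, summed to 91.1, 595, 67.9 and 430 FPKM. They were led by S100a9 at 45.0, 276, 31.2 and 207 FPKM and S100a8 at 22.4, 141, 16.7 and 99.4 FPKM. Adipocyte markers summed to 91.2, 37.8, 138 and 62.7 FPKM over 10 genes, and Ucp1 was listed at 0 in 3 libraries and at 0.03 FPKM with both drugs. Relative to vehicle, Angptl4 was 3.95, 0.785 and 2.87, the macrophage sum 4.21, 1.09 and 4.94, and the neutrophil sum 6.53, 0.746 and 4.72 with amiodarone, dabigatran and amiodarone + dabigatran. Angptl4, Plin2 and the neutrophil sum had the same order over the 4 libraries, and the macrophage sum was highest with both drugs. An order over 4 single libraries cannot tell cell sources apart. The part of these cell types in the values of the 34 genes was not tested.

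The 8 markers of alveolar type 2 cells summed to 25676, 26225, 25154 and 27091 FPKM, and the 6 airway markers, led by Scgb1a1 and Cyp2f2, to 130380, 77895, 104547 and 101911 FPKM. The 6 endothelial markers summed to 1009, 1056, 1175 and 936 FPKM and the 6 fibroblast markers to 443, 314, 510.1 and 350 FPKM. Skeletal muscle markers, 7 genes led by Ckm, summed to 41.0, 25.5, 43.6 and 17.8 FPKM. Only 4 of these 7 met the minimum of 1 FPKM. Of the 4, 2 had a ratio above 1 and 2 below with amiodarone against vehicle. In the second amiodarone comparison 1 was above and 3 were below. Of all these sums, the airway sum was lowest with amiodarone and the fibroblast sum was lower in both amiodarone comparisons. The type 2 sum was slightly higher in both, but its genes went both ways. Beyond counting error 5 of 8 were higher and 3 lower with amiodarone against vehicle, beside 19.5% and 30.0% of all genes. In the second comparison 6 were higher and 1 lower, beside 19.5% and 23.3%.

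**Figure D5:**
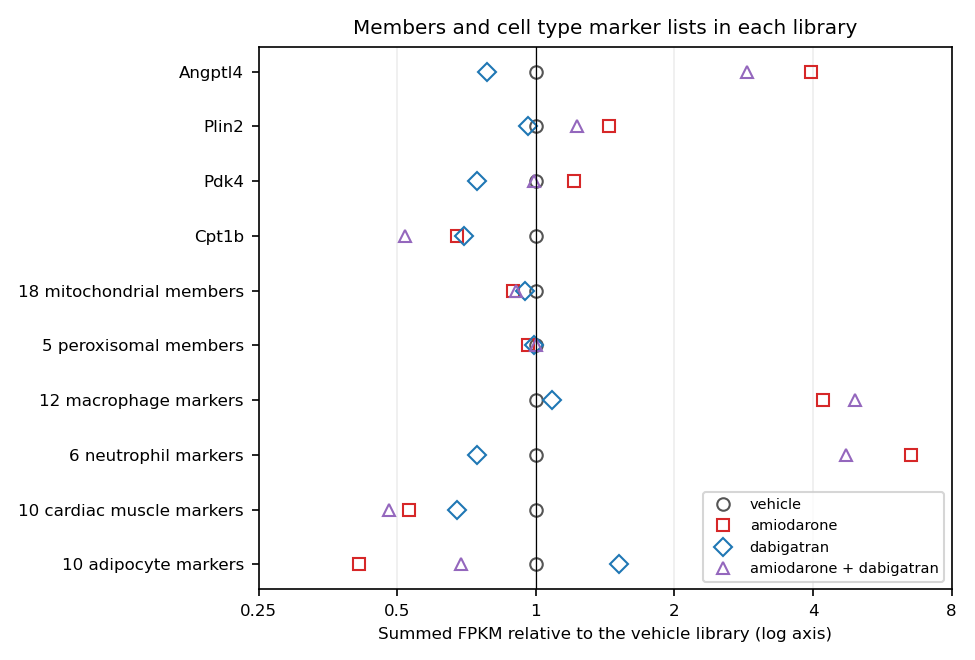
Summed FPKM of marker lists and of members in each library relative to vehicle, on a log axis. Macrophage and neutrophil sums stand at 4.21 and 6.53 with amiodarone, the cardiac sum at 0.529, and the sums of mitochondrial and peroxisomal members at 0.894 and 0.963.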

How the data were processed

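The authors sequenced polyA RNA of left lung (DNBSEQ), mapped reads to GRCm38.p6 with HISAT 2.0.4 and to gene sequences with Bowtie2 2.2.5, and quantified genes with RSEM 1.2.8. The deposited table holds, per library, estimated counts of reads made by the authors with RSEM, and a normalized value whose unit is not given in the sources used here. This deposited value was read as FPKM, because reads per value differed between libraries by 1 factor (1.07, 1.014 and 1.081 relative to vehicle) close to the ratio of total reads (1.07, 1.015 and 1.08). Another 8 columns of means over 2 libraries were not used. Of 17780 identifiers 17669 were in RefSeq, from which coordinates come. RefSeq genes overlapped 17 members, and how reads were assigned to strands is not given in the sources used here.

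Ratios are of FPKM without a pseudocount. Intervals were computed from rounded reads (Python 3.11.15, scipy 1.17.1), those of a ratio of ratios by the normal approximation on the log scale, and sequenced reads are not independent molecules. The procedure was tested on simulated counts that held counting error only, which says nothing about the spread between animals. No test was made because each group had 1 library. All members could be named, with full values for those past 1.5-fold, for the highest and lowest amiodarone ratio of each role and for the 3 most abundant. Other pathway genes were named where past 1.5-fold in the same direction in both amiodarone comparisons, and the 2 most abundant of each marker list could be named. Acot2, Acadvl, Acaa2 and the remaining members were added with their ratios. Members and lists were chosen with earlier results of these data known. Of the listed genes 4 were not found and 1 was found by an older symbol. Alternatives were pseudocounts of 0.1 and 1, minimum means of 5 FPKM or none, a minimum in vehicle, a 2-fold threshold, rescaling by the median ratio (factors 1.01, 0.976, 1.01 and 1.00 over 12728 genes) and read counts scaled to library totals. Use of the second Plin2 row was chosen after seeing the data.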

Additional observations from a re-analysis of the deposited data

Results flagged for a closer look

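For 5 members 2 comparisons that share no library differed in opposite directions, each beyond counting error. The share of all genes that did so was not computed, so the count is not read as unusual. Whether these differences exceed the spread between animals was not tested, since each group had 1 library. Acadl had a ratio of 1.06 for amiodarone against vehicle and 0.926 for amiodarone + dabigatran against dabigatran. The ratios for dabigatran against vehicle and for amiodarone + dabigatran against amiodarone were 1.06 and 0.864 for Cpt1a, 0.926 and 1.11 for Acadvl, 0.932 and 1.15 for Hadh, and 0.888 and 1.10 for Etfb. The ratio of the 2 ratios was 0.870 (0.803 to 0.943) for Acadl, 0.812 (0.749 to 0.879) for Cpt1a, 1.2 (1.08 to 1.34) for Acadvl, 1.23 (1.12 to 1.35) for Hadh and 1.24 (1.10 to 1.40) for Etfb, with counting error only.

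The second row with the symbol Plin2, Gm12551 by its identifier, was used only as the alternative to the other row. It held 4 estimated reads with amiodarone and 4.85 with dabigatran, above the 3 that a count of 0 allows, beside 0 with vehicle and 1.67 with both drugs.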

How the results depend on the processing

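No paired analysis was possible because each group had 1 library, and for the same reason no library could be left out. Under the alternatives tried, 88 of 88 medians and counts stayed within counting error of the reported value or within 1.5 times the reported count, and so did 136 of 136 ratios of single members in each of 4 settings (both pseudocounts, rescaling and read counts). The count of members past 1.5-fold stayed at 1 in each amiodarone comparison and 0 in each dabigatran comparison, also at 2-fold. Counts of members beyond counting error can depend on scaling where an interval ends close to 1. An example is Etfdh, whose interval for amiodarone against vehicle ended at 0.990. The mitochondrial medians ranged from -0.17 to -0.12 with amiodarone against vehicle and from -0.10 to -0.08 in the second comparison. Signs close to 0 turned under some settings. The peroxisomal medians became -0.02 and -0.0035 with a minimum mean of 5 FPKM, under which Ehhadh is not counted. The median of all members became 0.01 for amiodarone against vehicle after rescaling by the median ratio, and 0.01 for amiodarone + dabigatran against amiodarone with a minimum mean of 5 FPKM. Depth limits the least abundant members, Ppara and Ppargc1a, with 147 to 208 reads.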
